A study of Mus musculus with 2 samples.

Results

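Imprinted genes are expressed mainly from the copy inherited from 1 parent, and many of those that control fetal growth are transcribed in the liver. The transcripts of 10 such genes, *Igf2*, *Igf2r*, *Grb10*, *H19*, *Dlk1*, *Meg3*, *Peg3*, *Plagl1*, *Mest* and *Cdkn1c*, were counted in single cells of e13.5 mouse fetal liver. The genes were chosen by name, but with earlier results of these data known. All 10 are among the 27998 genes listed and the 17768 genes with at least 1 UMI, the barcode that marks 1 captured transcript. The cells came from pooled livers of untreated C57BL/6 embryos, and there were no other genotypes, ages or treatments. Because the strain is inbred, the parental copy of a transcript cannot be read from these counts, and imprinting itself was not measured. The experiment was CITE-seq, in which 1 cDNA library gives the transcripts of each cell and 1 antibody library gives its surface proteins. Cells carrying Ter119, an antigen of maturing red cells, were depleted with magnets. Ter119-carrying cells, equal in number to the depleted fraction, were then added to it, so shares of cells are not those of the liver.

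Among 7863 cells in the matrix, 7244 passed the filters, and 192 of these were hepatocyte-like, defined as cells in which *Afp*, *Apoa1* and *Rbp4* together held at least 1% of UMIs. The class is a range cut from a score, but few cells lay near the limit, with 5 kept cells between 0.3% and 1%, 12 between 1% and 3%, and 180 at 3% or more. A list of 19 other hepatocyte genes, such as *Alb* and *Ttr*, summed to 58275 CPM (the UMIs of a gene per 1000000 UMIs of a population) in these cells and to 196 CPM in S0-low cells, and all 19 were detected. The other cells were placed in erythroid stages by Ter119 and by CD71, the transferrin receptor. S0-low (1400 cells), S0-medium (1051 cells) and S1 (609 cells) have low Ter119 with low, medium and high CD71. S2 (1294 cells) has medium Ter119 with high CD71, and S3 (836 cells) and S4/S5 (898 cells) have high Ter119 with high and low CD71. By antibody counts the hepatocyte-like cells resembled S0-low cells in Ter119, with a median of 9 against 4, and in CD71, with 97.5 against 70, but not in cKit, with 23 against 280. They were therefore left out of every stage, since 110 of them fell inside the S0-low gate.

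The members act at different points of growth control. *Igf2* encodes insulin-like growth factor 2, a fetal growth factor that signals through the receptors of *Igf1r* and *Insr*. *Igf2r* encodes a receptor that carries the ligand to lysosomes for breakdown, and *Grb10* encodes an adaptor that binds activated insulin and IGF receptors and restrains their signal. *H19* and *Meg3* are long noncoding RNAs transcribed beside *Igf2* and *Dlk1*, and *Dlk1* encodes a transmembrane protein of the Delta family that is a known marker of hepatoblasts. *Peg3* and *Plagl1* encode zinc-finger transcription factors, *Mest* encodes a protein of the hydrolase fold family, and *Cdkn1c* encodes p57, an inhibitor of cyclin-dependent kinases. In the mouse, *Igf2*, *Dlk1*, *Peg3*, *Plagl1* and *Mest* are transcribed from the paternal copy, and *H19*, *Meg3*, *Igf2r*, *Cdkn1c* and, in most tissues, *Grb10* from the maternal copy.

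On GRCm38.p6, the build mm10 of the counts, *H19* (chromosome 7, from 142575530 to 142578146) and *Igf2* (chromosome 7, from 142650768 to 142666816) are separated by 72622 bases. *Cdkn1c* lies on the same chromosome from 143458339 to 143461059, and *Peg3* far from both, from 6703892 to 6730462. *Dlk1* (chromosome 12, from 109452485 to 109463336) and *Meg3* (from 109540996 to 109571729) are separated by 77660 bases. The other members stand alone, *Igf2r* on chromosome 17 from 12682406 to 12769706, *Grb10* on chromosome 11 from 11930499 to 12037428, *Plagl1* on chromosome 10 from 13090832 to 13131694 and *Mest* on chromosome 6 from 30733506 to 30748466. Whether the counting used the strand of reads is not given in the sources used here, so reads of *Igf2r* and its antisense partner *Airn*, and of *Mest* and *Copg2*, may not be fully told apart.

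Of the members, 4 span genes of microRNAs on their own strand, whose mature sequences are shown because the host transcript is what the library counts. The library captured polyadenylated RNA and did not measure the mature microRNAs. The sequences are from RefSeq (GRCm38.p6), with the seed, bases 2 to 8, in capitals. The first pair lies within *Igf2*, the next within *H19*, then 3 within *Meg3* and the last pair within *Mest*.

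mmu-miR-483-3p: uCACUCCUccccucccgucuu

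mmu-miR-483-5p: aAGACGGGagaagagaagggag

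mmu-miR-675-3p: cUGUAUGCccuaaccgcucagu

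mmu-miR-675-5p: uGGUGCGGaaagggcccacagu

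mmu-miR-1906: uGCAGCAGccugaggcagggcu

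mmu-miR-770-5p: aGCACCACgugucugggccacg

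mmu-miR-770-3p: cGUGGGCCugacguggagcugg

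mmu-miR-335-5p: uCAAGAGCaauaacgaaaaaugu

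mmu-miR-335-3p: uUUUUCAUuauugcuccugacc

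No seed is shared between these 9 sequences. *Grb10* is the member whose CPM, with globin UMIs in the total, followed the erythroid stages step by step, as given below. RefSeq gives 2 starts for it. Their RefSeq windows, 250 bases before to 50 after each start on the minus strand, are shown with CG dinucleotides in capitals because the starts differ in CpG content.

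Grb10, chr11:12037371-12037670: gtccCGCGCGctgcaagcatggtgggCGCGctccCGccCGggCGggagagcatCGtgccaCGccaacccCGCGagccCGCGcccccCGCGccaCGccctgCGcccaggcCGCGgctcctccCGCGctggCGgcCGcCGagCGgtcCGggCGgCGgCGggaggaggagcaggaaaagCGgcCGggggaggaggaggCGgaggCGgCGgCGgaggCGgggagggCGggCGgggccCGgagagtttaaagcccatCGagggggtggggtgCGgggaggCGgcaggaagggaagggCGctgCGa

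Grb10, chr11:12027922-12028221: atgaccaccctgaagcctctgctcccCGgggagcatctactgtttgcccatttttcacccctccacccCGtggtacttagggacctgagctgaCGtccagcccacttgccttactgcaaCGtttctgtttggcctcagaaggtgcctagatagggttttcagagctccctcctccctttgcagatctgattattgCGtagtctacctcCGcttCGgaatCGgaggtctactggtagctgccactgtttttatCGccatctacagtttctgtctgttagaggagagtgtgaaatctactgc

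The upstream window held 45 CG dinucleotides at a GC content of 80.0%, which is 0.973 of the number its base composition gives, and the other held 9 at 52.3%, or 0.446. The counts are summed over the gene and do not tell which start was used. Of 15 windows of 8 members, 7 reached a CpG ratio of 0.6, against 35.8% of all 32851 windows. Searched on both strands, the GATA letters AGATAA were in 0 of the 15 windows and in 11.2% of all windows, and the HNF4A letters CAAAGTCCA in 0 and in 0.475%. The FOXA letters TGTTTAC were in 1 window, that of *Dlk1*, and in 3.65% of all. The PLAGL1 letters GGGGCCCC were in 1 window, that of *Peg3*, and in 1.08% of all.

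To ask which cells of the fetal liver carry these transcripts, UMIs were summed over each population. With 1 library there are no replicates, so no p-value can be given, and the bracketed values bound counting error alone, at 95%. In hepatocyte-like cells, 9 of the 10 members were at least 2 times as high as in S0-low cells and 0 were at or below 0.5, while over all 9423 genes with enough UMIs 14.1% were at least 2 times as high and 28.7% at or below 0.5. The median ratio was 29.6 over the members and 0.724 over all genes. The exact intervals of all 10 members lay above 1. The exception to the fold was *Plagl1*, at 1.88 (1.04 to 3.27), with 19 UMIs in hepatocyte-like cells. Hepatocyte-like cells were also the deepest, with a median of 12969 UMIs against 6017 in S0-low, and CPM divides this difference out. Globin genes held 1.08% of UMIs in S0-low, 13.2% in S2, 37.9% in S3 and 64.0% in S4/S5, which lowers every other gene in CPM. The stage levels below keep globin UMIs in the total, so steps between late stages include this effect.

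**Figure D1:**
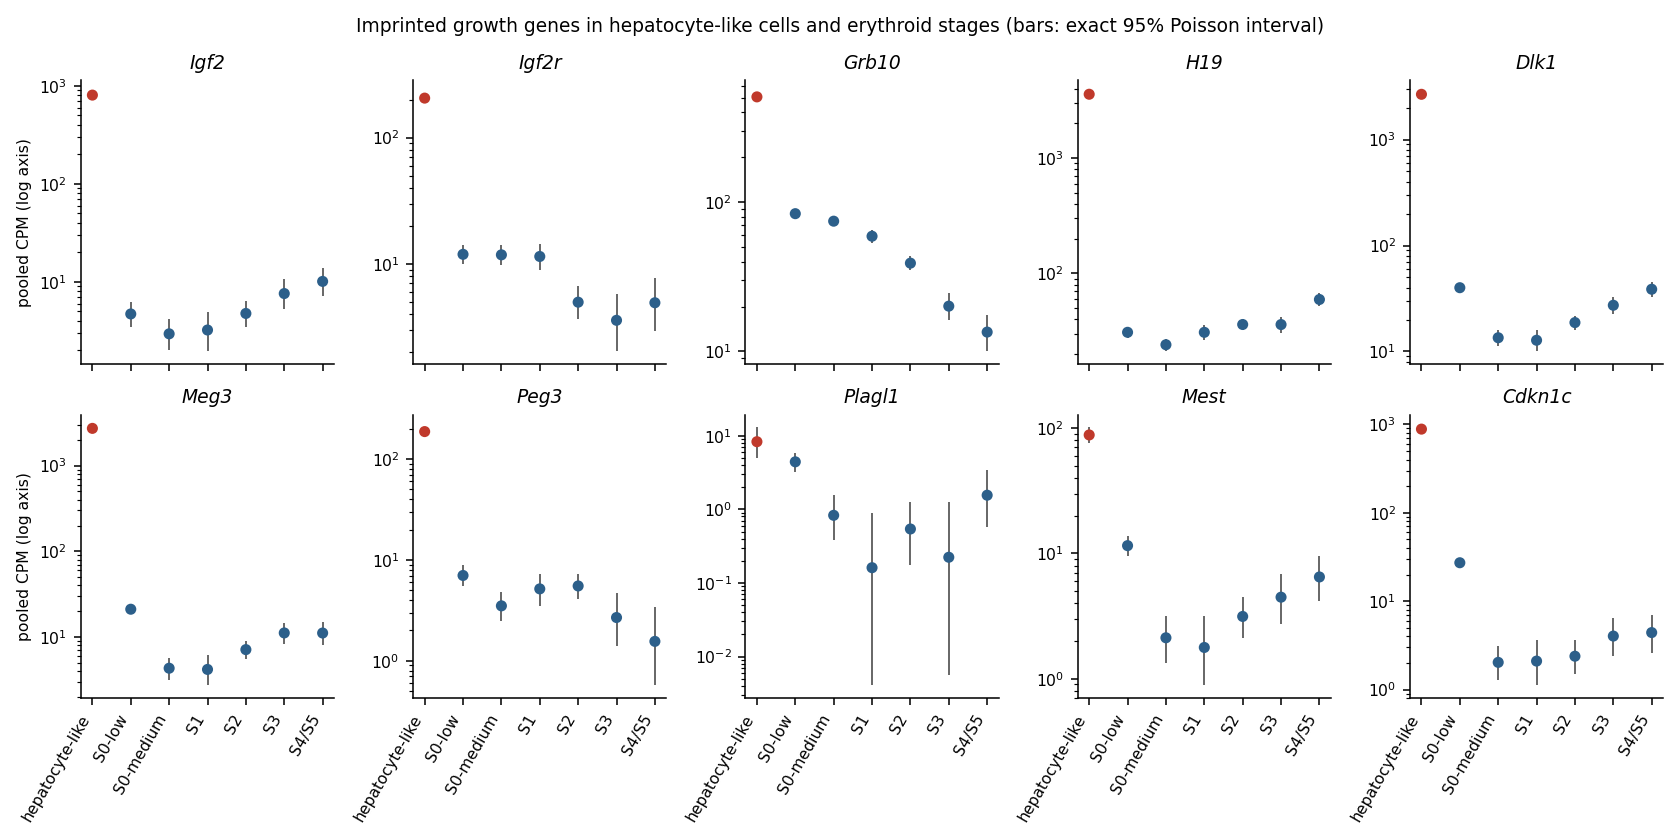
Pooled CPM (log axes, scaled for each gene) of the 10 imprinted genes in hepatocyte-like cells (red) and 6 erythroid stages (blue), with exact 95% Poisson intervals as bars. In every panel the hepatocyte-like point is the highest. Among the stages, with globin UMIs in the total, Grb10 declined at each step from S0-low at 83.8 CPM to S4/S5 at 13.48 CPM.

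*Igf2*, the growth factor, was counted at 806 CPM (769 to 843) in hepatocyte-like cells. In the stages from S0-low to S4/S5 it was at 4.71, 2.95, 3.23, 4.76, 7.60 and 10.1 CPM. The hepatocyte-like level was thus 171 times (129 to 232) that of S0-low and 79.7 times (58.1 to 112) that of S4/S5, the highest stage. No pair of stages that were neighbours in the order of levels differed beyond the counting interval, though S4/S5 was 2.15 times (1.37 to 3.34) as high as S0-low. *Igf2* UMIs were found in 191 of the 192 hepatocyte-like cells, with a median of 9 and a highest value of 44, and in 2.43% of S0-low cells.

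*H19* was counted at 3578 CPM (3501 to 3656) in hepatocyte-like cells and at 30.8, 24.1, 30.8, 36.0, 36.0 and 59.4 CPM in the 6 stages in order. The ratio to S0-low was 116 (104 to 130). Among the stages, S4/S5 was 1.65 times (1.39 to 1.96) as high as S2, the next in order, and S2, S3, S0-low and S1 did not differ beyond their intervals as neighbours. Every hepatocyte-like cell held *H19*, from 6 to 124 UMIs with a median of 42, whereas 16.1% of S0-low cells held a UMI, at median depths of 12969 and 6017 UMIs.

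Across the 192 hepatocyte-like cells, *Igf2* and *H19* were the most closely related pair of the 8 members found in most of these cells, with a Spearman rho of 0.48 between their CPM. The median over the 28 pairs of those 8 members was 0.04, and the range ran from -0.10 to 0.48. The cells share 1 library, and both genes were lower in deeper cells, with a rho of -0.33 for *Igf2* and -0.31 for *H19*, whose part in the relation was not tested. The rho of *Igf2* with the hepatocyte gene *Afp*, whose UMIs were part of the rule that chose these cells, was 0.17.

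*Igf2r*, the clearance receptor, was counted at 205 CPM (187 to 225) in hepatocyte-like cells. From S0-low to S1 it was at 11.9, 11.8 and 11.5 CPM, and at 4.98, 3.58 and 4.93 CPM in S2, S3 and S4/S5. The first 3 stages did not differ, S1 was 2.30 times (1.57 to 3.41) as high as S2, and the last 3 did not differ beyond their intervals. The last 3 rest on 46, 16 and 19 UMIs, with globin genes at 13.2%, 37.9% and 64.0% of the total. These steps were not recomputed without globin UMIs, so a flat course over the last 3 holds for CPM alone. The globin share rose from S3 to S4/S5, so the ratio of S4/S5 to S3, 1.38 (0.671 to 2.86), would be larger relative to non-globin UMIs. The ratio of hepatocyte-like to S0-low cells was 17.2 (14.1 to 21.2). *Airn*, counted as a gene of its own, had 24 UMIs in hepatocyte-like cells against 471 for *Igf2r*.

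*Grb10*, the adaptor, was at 509 CPM (480 to 539) in hepatocyte-like cells and at 83.8, 74.7, 59.2, 39.1, 20.1 and 13.48 CPM in the stages in order. It was the only member whose neighbours in the order of levels differed beyond their intervals at every step, from 1.12 times (1.02 to 1.24) between S0-low and S0-medium to 1.94 times (1.54 to 2.47) between S2 and S3. Globin UMIs are in these totals, at 37.9% in S3 and 64.0% in S4/S5. The single steps were not recomputed without them, so a decline at every step holds for CPM alone. From S3 to S4/S5 the share of non-globin UMIs fell by more than the 1.49 times (1.05 to 2.14) of *Grb10*. That last step is therefore not a decline relative to non-globin UMIs. The ratio of hepatocyte-like to S0-low cells, 6.07 (5.55 to 6.63), was the smallest after that of *Plagl1*. *Grb10* was also counted in classes set by marker genes, at 29.6 CPM in megakaryocyte-like, 27.0 in myeloid-like and 9.98 in macrophage-like cells. These classes were not taken out of the stages, and 123 of the 283 myeloid-like cells were also S0-low cells.

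The gates are coarse, so the lineage-low cells were also ordered by antibody count. Within low Ter119, *Grb10* was at 62.3 and 63.0 CPM in the 2 groups of lowest CD71, of 306 cells each. Its CPM was highest in the third (87.6 to 114) and the fourth (84.4 to 108) group. The intervals of the fifth (74.8 to 96.8) and the sixth (76.8 to 97.3) overlap both, and the tenth was at 54.8 CPM. Across 10 groups of rising Ter119 *Grb10* went on from 54.0 to 12.3 CPM. *Igf2r* had a like course at lower counts, from 5.90 CPM in the first group to 16.2 CPM (11.4 to 22.2) in the third and 10.3 CPM in the tenth.

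**Figure D2:**
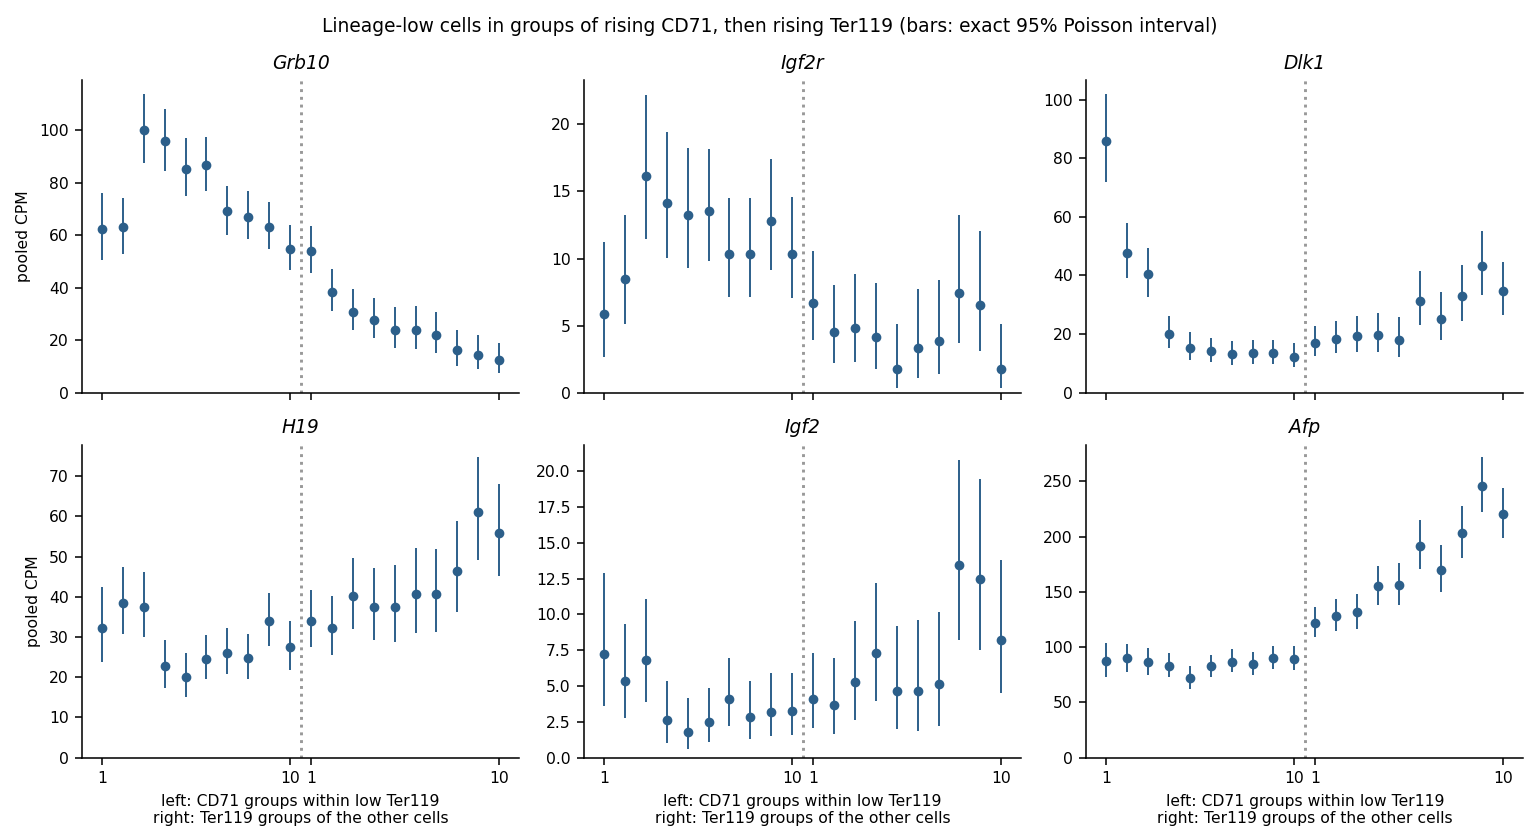
Pooled CPM of 5 imprinted genes and Afp in groups of cells ordered by CD71 within low Ter119 (left of the dotted line) and by Ter119 in the other cells (right), with exact 95% Poisson intervals as bars. Grb10 was highest in the third to the sixth group of CD71, whose intervals overlap, and lower after them on both sides of the line. Dlk1 went from 85.9 to 12.2 CPM across CD71, and Afp was level across CD71 and higher at high Ter119.

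*Dlk1* was counted at 2679 CPM (2612 to 2746) in hepatocyte-like cells and at 40.0, 13.46, 12.7, 18.7, 27.3 and 38.6 CPM in the stages. S0-low was 67.0 times (60.7 to 74.2) lower than hepatocyte-like cells. In CPM, with globin UMIs in the total, it did not differ from S4/S5 beyond its interval. All 192 hepatocyte-like cells held *Dlk1*, from 3 to 93 UMIs with a median of 32. Along CD71 the level dropped from 85.9 CPM (71.8 to 102) in the group of lowest CD71 to 47.8 and 40.4 CPM in the next groups and 12.2 CPM in the last, so the S0-low value joins cells of unlike level.

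*Meg3*, its neighbour on chromosome 12, was counted at 2721 CPM (2654 to 2790) in hepatocyte-like cells, and at 21.1, 4.33, 4.19, 7.14, 11.2 and 11.1 CPM in the stages. The ratio to S0-low was 129 (113 to 148). UMIs were found in 190 of the 192 hepatocyte-like cells, with a median of 26 and a highest value of 121. Unlike *Igf2* and *H19*, the pair on chromosome 12 was only weakly related across these cells, with a rho of 0.18 between *Dlk1* and *Meg3* (the difference between the pairs was not tested).

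*Cdkn1c*, the cell cycle inhibitor, was counted at 883 CPM (845 to 923) in hepatocyte-like cells and at 27.2, 2.03, 2.10, 2.38, 4.02 and 4.41 CPM in the stages. The S0-low level was 32.5 times (28.7 to 36.9) lower than that of hepatocyte-like cells but 6.17 times (3.78 to 10.7) higher than that of S4/S5, the next in order. It was found in 191 hepatocyte-like cells, with a median of 9 UMIs. *Top2a*, a gene of dividing cells, had a rho of -0.11 with *Cdkn1c* and of 0.42 with *Meg3* across hepatocyte-like cells.

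*Peg3* was counted at 188 CPM (170 to 206) in hepatocyte-like cells, in 162 of 192, and between 1.56 and 7.01 CPM in the stages, a ratio to S0-low of 26.8 (20.8 to 34.8). No neighbouring stages differed beyond their intervals. *Mest* stood at 88.1 CPM (76.4 to 101) in hepatocyte-like cells and at 11.5, 2.12, 1.77, 3.14, 4.47 and 6.48 CPM in the stages. *Mest* and *Plagl1* differed from the other members in how they were spread, since *Mest* UMIs were in 21 and *Plagl1* UMIs in 8 of the 192 hepatocyte-like cells. A group of 7 cells with 14 to 47 *Mest* UMIs held 91.6% of the *Mest* UMIs of the class, and 1 cell held 10 of its 19 *Plagl1* UMIs.

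**Figure D3:**
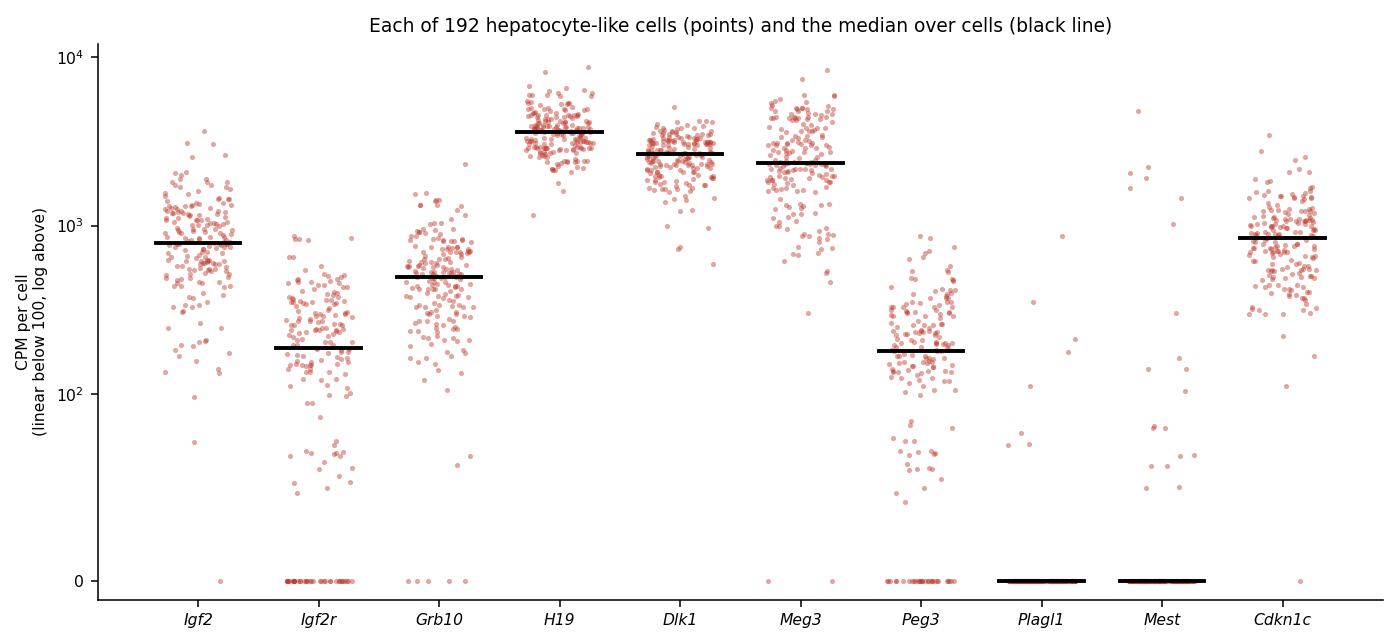
CPM per cell (linear below 100, log above) of the 10 imprinted genes in each of the 192 hepatocyte-like cells, with the median over cells as a black line. Igf2, H19, Dlk1, Meg3, Grb10 and Cdkn1c formed 1 cloud of cells each, Igf2r and Peg3 had cells at 0 in addition, and Mest and Plagl1 were at 0 in all but 21 and 8 cells.

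Free RNA in droplets can add UMIs of hepatocyte genes to other cells, so the stage levels were set beside 18 hepatocyte genes with enough UMIs. Free RNA itself was not measured, and whether the stage UMIs of these 18 genes come from it was not tested. As a percent of their hepatocyte-like level, the median of these genes was 0.340, 0.324, 0.392, 0.457, 0.693 and 0.981 in the 6 stages in order. *Igf2* lay inside the range of the 18 genes in all 6 stages, from 0.366% in S0-medium to 1.26% in S4/S5. Its interval held the median of the 18 genes in 5 stages and lay above it in S0-low, at 1.72 times, where 5 cells held 38.8% of its 49 UMIs. Whether these counts are free RNA was not tested. *H19* lay inside the range in S0-low, S0-medium and S4/S5 and slightly above it in the others, though its interval overlapped the range in S3, for example at 0.861% in S1 where the highest of the 18 genes was at 0.547%. The interval of *H19* lay above the median of the 18 genes in all 6 stages, from 1.45 times in S3 to 2.53 times in S0-low. *Meg3* was inside the range or below it in every stage, though at 2.28 times the median in S0-low. *Cdkn1c* and *Dlk1* were above the range in S0-low, at 3.08% and 1.49%, where the highest of the 18 genes was at 0.962%. These were 9.05 and 4.39 times the median, and neither gene exceeded 2 times the median in another stage.

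*Grb10* was above the range in all 6 stages, at 16.5%, 14.7%, 11.6%, 7.68%, 3.96% and 2.65% of its hepatocyte-like level in order. In S0-low this was 48.5 times the median of the 18 genes, and in S4/S5 it was 2.70 times. *Igf2r* was also above the range in all 6, at 5.80%, 5.74% and 5.57% up to S1 and at 2.42%, 1.74% and 2.40% after it, although in S4/S5 its interval (1.43% to 3.79%) overlapped the range. *Peg3* was above the range from S0-low (3.74%) to S3 (1.43%, where its interval overlapped the range) and inside it in S4/S5, on 6 to 73 UMIs a stage. The percents of *Mest* and *Plagl1* rest on the few hepatocyte-like cells that held them.

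**Figure D4:**
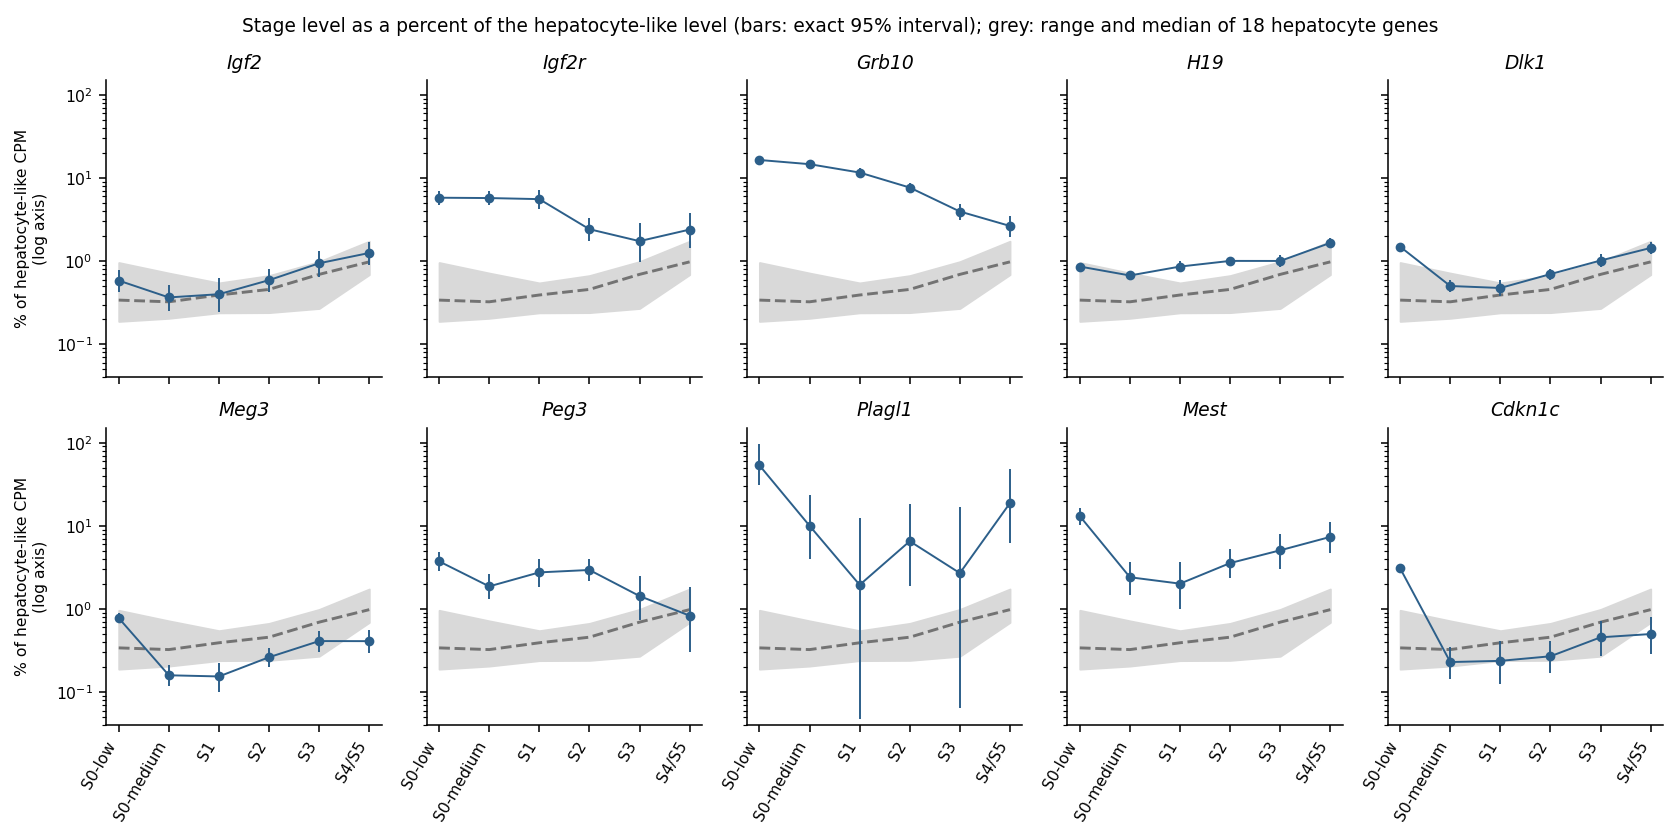
Level of each imprinted gene in the 6 stages as a percent of its hepatocyte-like level (blue points, log axis, with exact 95% intervals of the ratio), with the range (grey band) and median (dashed line) of 18 hepatocyte genes. Grb10 and Igf2r lie above the band at every stage, Igf2 lies within it, and Meg3 lies within or below it.

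To ask how the members differ between an early and a late gate, S3 was compared with S0-low. The S0-low gate also held 123 myeloid-like cells and the marker-bearing cells described below, so the ratios do not follow maturation alone. Of 9 members with enough UMIs, 0 were at least 2 times as high in S3 and 5 were at or below 0.5, namely *Igf2r* at 0.3003 (0.166 to 0.507), *Grb10* at 0.240 (0.191 to 0.298), *Peg3* at 0.383 (0.189 to 0.710), *Mest* at 0.388 (0.229 to 0.626) and *Cdkn1c* at 0.148 (0.0865 to 0.238). Over all 8954 genes with enough UMIs, 6.10% were at least 2 times as high and 63.3% at or below 0.5, and the median ratio was 0.388 for the members and 0.388 for all genes. The members' counts were thus near those of all genes in this comparison. Of the 19 hepatocyte genes, 14 had enough UMIs here, and 8 were at least 2 times as high in S3 and 1 at or below 0.5. Their median ratio was 2.04, beside 1.62 (1.01 to 2.55) for *Igf2*. Globin genes held 37.9% of the UMIs in S3 and 1.08% in S0-low, which lowers every other gene in CPM. With globin genes left out of the total, *Igf2r*, *Grb10* and *Cdkn1c* were still at or below 0.5, at 0.478, 0.382 and 0.236, while *Igf2* came to 2.57, *H19* to 1.86 and *Dlk1*, at 0.683 with them, turned to 1.09. The shares of all genes were not computed without globin genes, so the 6.10% and 63.3% do not apply to these ratios. Whether the 3 members stand apart from other genes there was not tested.

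Part of the S0-low level sat in few cells. In 71 of the 1400 S0-low cells, at least 5 UMIs of 13 mesenchymal or of 10 endothelial marker genes were found, a limit set after the counts were seen. Most of these cells reached it through 1 gene, *Egfl7*, which gave 354 of their 390 endothelial UMIs and 1413 of the 1602 in the other S0-low cells, so the limit does not single out endothelial cells. With *Egfl7* not counted, 8 cells reached the limit, with 183 UMIs of the mesenchymal list. Without the 71 cells, *Cdkn1c* in S0-low came to 10.2 CPM, *Meg3* to 8.83, *Mest* to 3.53 and *Plagl1* to 0.519, and without the 8 cells alone to 9.93, 8.58, 3.66 and 0.482 CPM. *Grb10*, at 82.9 and 82.5 CPM, and *Igf2r*, at 11.8 in both, were nearly as before.

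Against the S0-low cells left after removal of the 71, and without such cells in S3, 2 of the 5 members counted at or below 0.5 were no longer so. *Mest* came to 1.27 (0.695 to 2.28) and *Peg3* to 0.896 (0.417 to 1.81), and the latter had too few UMIs to be counted. *Igf2* passed 2, at 2.46 (1.46 to 4.15), and *Meg3* went from 0.529 to 1.27 (0.880 to 1.83). Whether the rise of *Igf2* differs from that of the hepatocyte genes was not tested. *Grb10* at 0.244 and *Igf2r* at 0.285 were still at or below 0.5. *Cdkn1c*, at 0.398, was so through 1 cell that held 60 of its 98 remaining S0-low UMIs, and without that cell the ratio was 1.03 (0.551 to 1.84). *Meg3* and *Mest* also rested on 1 cell each, with 33 of 85 and 14 of 34 UMIs. Without it their ratios were 2.08 (1.38 to 3.13) and 2.16 (1.11 to 4.24). *Grb10* and *Igf2r* hardly moved without their top cell, at 0.246 and 0.293.

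Antibody counts of cKit, the stem cell factor receptor, also divided S0-low. *Cdkn1c* was at 5.30 CPM in 661 cells of high cKit and at 62.3 CPM in 739 cells of low cKit, and *Meg3* at 4.36 and 48.1 CPM. *Grb10*, at 84.5 and 82.9 CPM, and *Dlk1*, at 38.6 and 42.1 CPM, were alike in both. The 5 cells richest in *Meg3* held 70.0% of its 220 UMIs in S0-low.

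The cells in which mesenchymal or endothelial marker genes were counted were examined directly, with a limit of 10 UMIs of a list, also set after the counts were seen. In 14 cells with mesenchymal but not endothelial markers, *Cdkn1c* was at 4946 CPM (4491 to 5434), *Meg3* at 3817, *Dlk1* at 2484, *Mest* at 1789, *H19* at 1664, *Plagl1* at 832, *Peg3* at 707, *Grb10* at 456, *Igf2* at 376 and *Igf2r* at 125 CPM. All 14 held *Cdkn1c*, with a median of 30 UMIs, and 12 held *Plagl1*. The members were thus counted there together, at a median depth of 6868 UMIs a cell, and these cells were neither hepatocyte-like nor, for 9 of them, within the lineage limit of the erythroid stages.

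By the stricter rule that *Col1a1*, *Col1a2* and *Col3a1* hold at least 0.2% of UMIs, 9 cells were mesenchymal-like. Relative to hepatocyte-like cells, *Plagl1* was 92.6 times as high in them (52.8 to 168), *Mest* 22.5 times (17.7 to 28.5), *Cdkn1c* 6.14 times (5.43 to 6.93), *Peg3* 4.47 times (3.24 to 6.05) and *Meg3* 1.51 times (1.32 to 1.73). *Dlk1* at 1.07 (0.911 to 1.25) and *Grb10* at 1.05 (0.707 to 1.51) did not differ beyond the interval, and *Igf2r* at 0.521 (0.190 to 1.14) did not either. *Igf2* at 0.620 (0.411 to 0.899) and *H19* at 0.469 (0.378 to 0.574) were lower than in hepatocyte-like cells.

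Most *Mest* UMIs lay in other cells. In 39 cells with endothelial but not mesenchymal markers it was at 3188 CPM (3016 to 3368), and these cells, 0.737% of all UMIs, held 54.1% of the *Mest* UMIs of the kept cells. Of the 39, 8 were megakaryocyte-like, with *Mest* at 330 CPM, and 1 was macrophage-like. The remaining 30, with 1148 UMIs of endothelial markers and 37 of megakaryocyte markers, held 1195 *Mest* UMIs at 4640 CPM, in 28 cells. In the 39 cells *H19* was at 666 CPM and *Cdkn1c* at 317 CPM, while *Dlk1* and *Meg3* at 97.2, *Igf2* at 54.8 and *Igf2r* at 47.4 CPM were far below hepatocyte-like cells. A further 8 cells held both lists, at a median depth of 14193 UMIs, with *Mest* at 3669 and *Plagl1* at 420 CPM, and whether they were doublets was not tested beyond the doublet filter.

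Over all 7244 cells, 67 had at least 5 *Mest* UMIs and held 91.8% of its 2362 UMIs. These were chosen by *Mest* itself, and 57 of them had at least 10 UMIs of either list. The same markers accompanied *Mest* inside the hepatocyte-like class. In 11 hepatocyte-like cells with at least 10 UMIs of either list *Mest* was at 1181 CPM and *Plagl1* at 108 CPM, and in the other 181 they were at 7.96 (4.64 to 12.7) and 0.936 CPM, near the 6.42 and 0.911 CPM of the 6991 other kept cells. Without those 11 cells the *Mest* ratio of hepatocyte-like to S0-low cells turned from 7.64 to 0.691, and with the 71 S0-low cells left out as well it was 2.25. *Igf2* (798 and 806 CPM), *H19* (3421 and 3590 CPM) and *Grb10* (574 and 504 CPM) were at like levels in the 11 and the 181 cells.

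**Figure D5:**
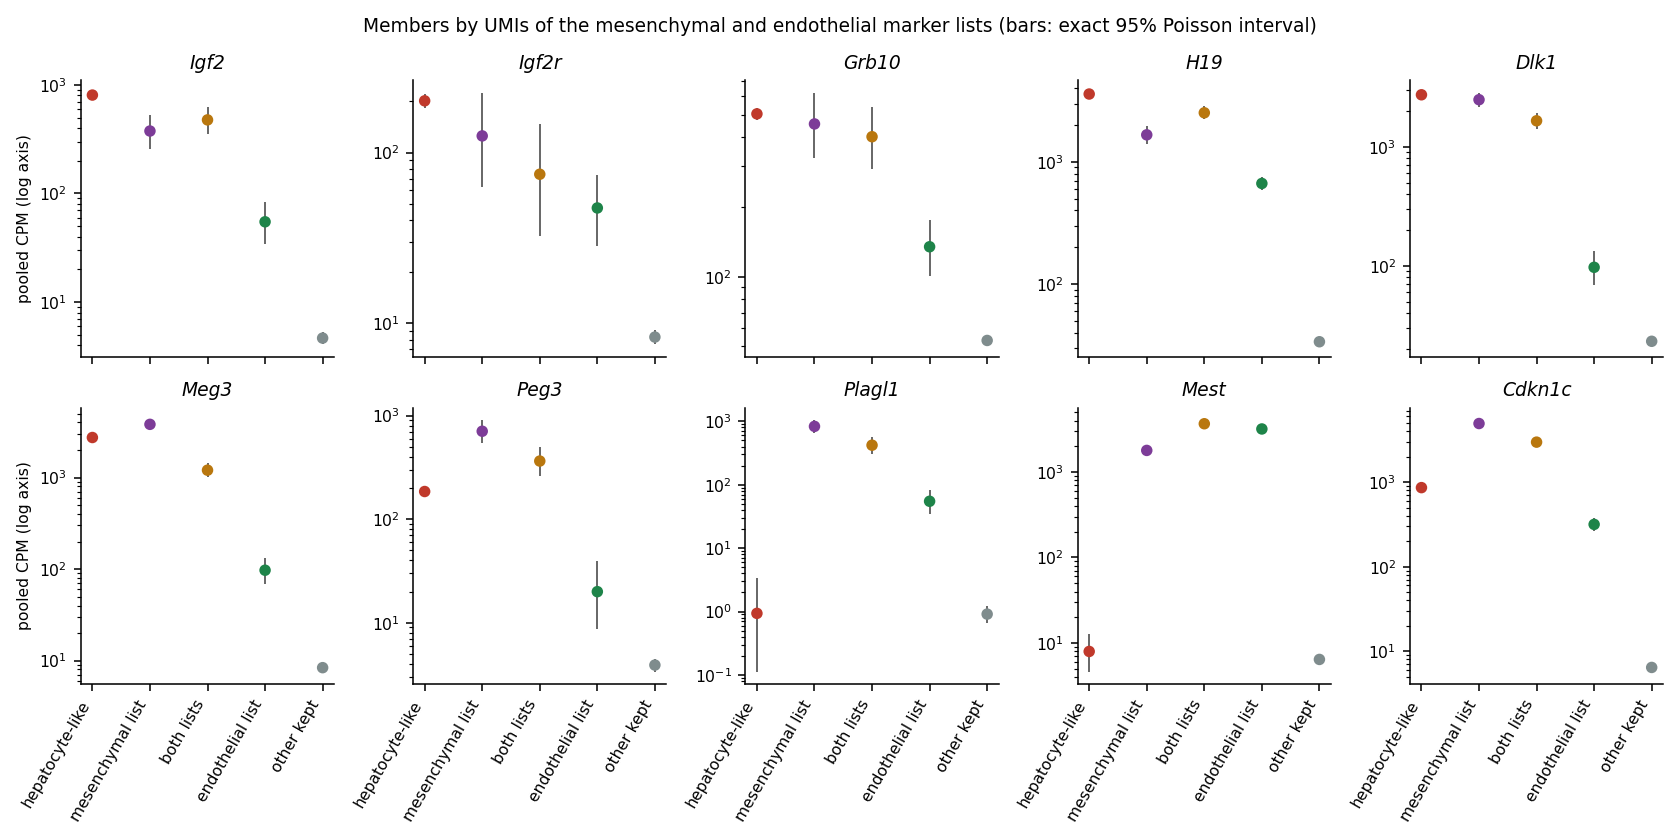
Pooled CPM (log axes, scaled for each gene) in 181 hepatocyte-like cells with under 10 UMIs of both marker lists (red), in cells outside that class with the mesenchymal (purple, 14 cells), both (orange, 8 cells) or the endothelial list (green, 39 cells) at 10 UMIs or more, and in 6991 other kept cells (grey), with exact 95% Poisson intervals as bars. Mest and Plagl1 are as low in these hepatocyte-like cells as in other kept cells, and Igf2, H19, Dlk1 and Meg3 are high in them.

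Other genes of the insulin-like growth factor pathway were read from a list of 19. Of 9 with enough UMIs, 6 were at least 2 times as high in hepatocyte-like as in S0-low cells (14.1% of all genes) and 1 was at or below 0.5 (28.7%), with a median of 2.54. The highest were the secreted binding proteins *Igfbp1* at 349 and *Igfbp3* at 6.19 and the insulin receptor *Insr* at 4.39. The lowest were *Igf1r*, the receptor that transmits the growth signal of *Igf2*, at 0.044, and the RNA-binding proteins *Igf2bp1* at 1.13 and *Igf2bp3* at 1.69. *Igf1r* had 5 UMIs in hepatocyte-like cells, or 2.18 CPM (0.708 to 5.09), against 49.5 CPM (45.3 to 53.9) in S0-low, and it declined to 6.48 CPM in S4/S5. *Igf1r* and *Grb10* thus both declined in CPM along the stages, with globin UMIs in the total, while *Igf2* and *Grb10* shared the hepatocyte-like cells. In S3 against S0-low, 0 of 7 genes were at least 2 times as high and 6 were at or below 0.5, where 6.10% and 63.3% of all genes were, with a median of 0.184. The highest were *Insr* at 0.839, *Irs2* at 0.383 and *Igf1r* at 0.194, and the lowest *Igfbp4* at 0.085, *Igf2bp2* at 0.096 and *Igf2bp1* at 0.120.

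Among 56 other imprinted genes, 52 were listed in the matrix and 29 had enough UMIs in hepatocyte-like and S0-low cells. Of these, 11 were at least 2 times as high in hepatocyte-like cells, where 14.1% of all genes were, and 6 at or below 0.5, where 28.7% were. The median was 1.19, beside 29.6 for the 10 members. The highest were *Tfpi2* at 316, *Mirg*, a noncoding RNA downstream of *Meg3*, at 169 and *Phlda2*, beside *Cdkn1c* in the same imprinted domain, at 128. The lowest were *Slc22a3* at 0.023, *Peg12* at 0.027 and *Snrpn* at 0.338. In S3 against S0-low, 2 of 23 were at least 2 times as high, where 6.10% of all genes were. They were *Zrsr1* at 6.13 and *Ddc* at 4.46, and the next was *Gnas* at 0.757. In all, 18 were at or below 0.5, as were 63.3% of all genes, the lowest being *Ndn* at 0.046, *Slc22a3* at 0.059 and *Dhcr7* at 0.090, and the median was 0.268.

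Genes with the most similar pattern were found by Pearson's r of log2(CPM + 10) over the 10 populations with at least 50 cells, among 8978 genes. The populations share 1 library, and 1 population of hepatocyte-like cells weighs heavily, so r is a description. *Afp* was among the genes whose UMIs defined that population, so the r of a member with *Afp* is not independent of that rule. *H19* was closest to *Afp*, *Apob* and *Kng1* (r of the first 0.995), *Igf2* to *Vtn*, *Gldc* and *Mbl1* (0.999) and *Igf2r* to *Ephx2*, *Soat2* and *Amacr* (0.978). *Dlk1* was closest to *Akr1c13*, *Gpc3* and *Bex2* (0.992), *Meg3* to *Fermt2*, *Slc38a4* and *Bex2* (0.992) and *Peg3* to *Cth*, *Car3* and *Lss* (0.990). For *Cdkn1c* the closest gene was another member, *Meg3* (0.988), followed by *Bex1* and *Igfbp3*. *Grb10* was closest to *Lgr4*, *Pla2g6* and *Pcyt2* (0.988), *Mest* to *Cdc42bpb*, *Rhoc* and *Maged2* (0.983), and *Plagl1* to the collagen gene *Col3a1*, *H1fx* and *Ube2e2* (0.932). For *Mest* and *Plagl1* these values rest on few cells. In hepatocyte-like cells, 7 cells held 91.6% of *Mest* UMIs, and *Plagl1* was at 8.29 CPM, below the 10 added. The mesenchymal-like and endothelial-like cells were too few to be among the 10 populations.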

How the data were processed

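From 10x 3′ cDNA reads mapped to mm10 with Cell Ranger, the authors deposited raw UMI counts of each gene in each cell. These had not been normalized, and cells over the mitochondrial limit given below were still among them. Seurat is also named in the submitters' processing notes. For 9 antibodies and a control IgG, counts obtained by CITE-seq-Count were deposited too, and whether reads of 1 molecule were collapsed is not given in the sources used here. The matrix held 58606632 UMIs, with 2510 to 38047 per cell and a median of 5707, so near-empty droplets were not in it. No columns belonged to another series (0 found).

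Cells were kept at 300 to 5000 genes and a mitochondrial share of at most 9%, after removal of 128 doublets (1.63%) called with Scrublet in scanpy at an expected rate of 6%. The filters removed 163 of 355 hepatocyte-like cells, 153 of them over the mitochondrial limit. Antibody counts were scaled by the centered log ratio and split by k-means (seed 7) into 3 classes of Ter119, 3 classes of CD71 at low and 2 at high Ter119. Cells whose sum over 5 lineage antibodies lay more than 2 scaled median absolute deviations over the median were left out of the stages, but 72 such cells were kept among the hepatocyte-like. These gates stand in for gates whose positions the sources used here do not give. Macrophage-, megakaryocyte-, myeloid-, mesenchymal- and endothelial-like cells (85, 83, 283, 9 and 2) had 3 markers of the type at 0.2% of UMIs or more, and 7 cells were in both of the first 2 classes. In the main results these cells were not taken out of the stages, so 123 of the myeloid-like cells were also in S0-low.

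Levels are UMIs pooled over a population per 1000000 UMIs, with exact Poisson intervals. Ratios have exact conditional intervals, and shares of cells exact Clopper-Pearson intervals, all at 95%. A ratio was counted at 2 or 0.5 for genes with at least 50 UMIs in both populations together. The named genes were the members, the 3 highest and 3 lowest of each list, and the 3 most alike for each member, by log2(CPM + 10), of those with at least 200 UMIs. The members and lists were chosen with earlier results of these data known. The ratios were tested on simulated Poisson counts, the model that the intervals assume, so uneven spread over cells was not covered by that test. Alternatives changed the scale, the gates, the filters, the denominator and the limits. The tools were scanpy 1.11.5 with scikit-learn 1.9.0 and anndata 0.12.19, scipy 1.17.1 with numpy 2.4.6, and pandas 2.3.3 and matplotlib 3.10.9 under Python 3.11.15.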

Additional observations from a re-analysis of the deposited data

How the results depend on the processing

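Members were counted as higher or lower at ratios of 2 and 0.5, except that the fold limit of 1.5 counted ratios of at least 1.5 or at most its inverse. Over 17 other settings and 4 more chosen after seeing the data, between 8 and 10 members were counted as higher in hepatocyte-like than in S0-low cells. In any of them, 0 were counted as lower. In S3 against S0-low the count of higher members was 1 in place of 0 with globin genes left out of the total, and at a fold limit of 1.5, through *Igf2* at 1.62. It was also 1 with stage cells holding at least 5 UMIs of the mesenchymal or endothelial list left out, whether or not *Egfl7* was counted. The count of lower members, 5 of 9 tested, was 3 of 9 with globin genes left out and 3 of 8 without those listed cells by either list. It was 3 of 5 with each cell thinned to 2000 UMIs and 9 of 9 with hepatocyte-like cells kept in the stages. In the others it was 4 to 7, with 7 for an assumed share of free RNA subtracted, UMIs per cell and all cells kept. The shares of all genes were not computed under these settings. *Mest* turned around to 0.657 for hepatocyte-like over S0-low with hepatocyte-like cells of low Ter119 only and to 0.691 without hepatocyte-like cells holding at least 10 list UMIs, but was at 2.25 with the listed cells left out of both. For S3 over S0-low *Mest* turned to 1.27 without the listed stage cells and to 1.22 with *Egfl7* not counted. A changed fold limit or UMI minimum leaves single ratios as they are, so those settings are not in the next counts. Of 280 values of single members under the rest of the 17 settings, 185 stayed within the interval of the reported value. In all, 11 of the 280 lay on the other side of 1, of which 1, the 0.657 of *Mest*, was for a ratio reported at 2 or more or at 0.5 or less. Under the 4 further settings, 24 of 60 stayed within the interval and 6 lay on the other side of 1. No replicate could be left out and no paired analysis was possible because there was 1 library of cDNA. The intervals do not cover differences between embryos, libraries or gates.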

Other observations

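The hepatocyte-like cells removed by the filters, 163 in number and mostly over the mitochondrial limit, held the members as well. *H19* was at 4520 CPM in them against 3578 in the kept cells, *Meg3* at 3428 against 2721, *Igf2* at 932 against 806 and *Igf2r* at 280 against 205, while *Dlk1* at 2203 against 2679 and *Cdkn1c* at 634 against 883 were lower.

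When the 192 hepatocyte-like cells were divided by *Top2a*, a choice made after its relation with *Meg3* was seen, *Meg3* was at 1817 CPM (1720 to 1918) in the 72 cells without a *Top2a* UMI, at 2780 in the 66 cells with 1 to 3 and at 3433 CPM (3310 to 3559) in the 54 cells with at least 4. *H19* was nearly level, at 3665, 3461 and 3602 CPM, as was *Dlk1* at 2768, 2566 and 2696 CPM, and *Cdkn1c* was at 961, 890 and 813 CPM. Depth moved with the groups, at a median of 10713.5, 11221 and 16038 UMIs, and its part in these values was not tested.

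The ligand *Igf1* had 1 UMI in hepatocyte-like cells and 315 UMIs, or 524 CPM (468 to 585), in the 85 macrophage-like cells, where *Igf2* had 2 UMIs. In 156 cells with at least 1% of UMIs from embryonic globin genes, *H19* was at 78.5 CPM (59.7 to 101). Within S3 to S5 it was at 69.9 CPM (49.7 to 95.6) in 113 such cells and at 45.2 CPM (40.6 to 50.1) in the 1621 cells below that share.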
